A study of Mus musculus with 16 samples.

Results

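NF-kB feedback inhibitors are genes that NF-kB switches on and whose products then restrain it. The genes described here are Tnfaip3, Tnip1, Nfkbia, Nfkbie and Nfkbiz, chosen by name. All 5 were found among the 10296 genes listed, and all 5 passed the filter on low values. They were followed in Ly6G+ neutrophils of C57BL/6 mice, sorted by flow cytometry on CD45, CD11b, Ly6G and DAPI from blood, spleen and lung. The mice were either germ-free (GF), that is raised without microbes, or specific pathogen free (SPF), that is carrying a normal flora without listed pathogens. The 16 libraries fell into 6 groups: 2 of GF blood (replicates 2 and 3), 2 of SPF blood (3 and 4), 3 of GF spleen (1, 3 and 4), 3 of SPF spleen (1, 2 and 4), 3 of GF lung (2, 3 and 4) and 3 of SPF lung (1, 2 and 3). The labels give no age and no treatment, and they do not say which libraries share a mouse, so every p-value rests on the scatter among libraries, some of which may be technical.

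NF-kB dimers are held inactive in the cytoplasm by IkB proteins. Signals from TNF, IL-1 and Toll-like receptors pass through ubiquitin chains to the IKK kinase, which marks IkB for destruction and frees the dimers to enter the nucleus. In neutrophils, as in other leukocytes, NF-kB then induces cytokines and chemokines and, with them, its own brakes. Tnfaip3 encodes A20, an enzyme that edits the ubiquitin chains upstream of IKK, and Tnip1 encodes ABIN1, an adaptor that binds A20 and ubiquitin. Nfkbia and Nfkbie encode the cytoplasmic inhibitors IkB alpha and IkB epsilon. Nfkbiz encodes IkB zeta, an inducible nuclear member of the family that restrains some target genes and co-activates others.

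The unit throughout is the normalised count, the deposited value less a constant offset of 0.5 reads that every value carries. The libraries held between 132798 and 3033941 reads in blood, 104213 and 640596 in spleen, and 504208 and 1147991 in lung, and 5 libraries held under 250000 reads (blood GF replicate 3, spleen GF replicates 1 and 4, and spleen SPF replicates 1 and 4). In those libraries 1 read was worth 4.70 to 7.62 normalised counts, so low values there rest on few reads. The 15 neutrophil markers examined were detected in every group and summed to between 47367 and 102062. Single markers moved both ways by the test given below. Trem1 and G0s2 were higher in lung than in blood and spleen, in GF and in SPF mice, and Cxcr2 and Mmp9 were lower. Ly6g, on which the cells were sorted, was lower in lung than in both spleen groups and SPF blood, and did not pass against GF blood. Lung libraries also carried more transcripts of lung epithelium and of endothelium and stroma than the others, blood libraries carried platelet and erythroid transcripts summing to 44401 to 99689, and these values are set beside the results they touch.

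Tnfaip3, Nfkbiz, Nfkbia and Nfkbie were all higher in the lung libraries than in the blood or spleen libraries, in GF and in SPF mice alike. Tnip1 passed in no comparison. The part of other cells' transcripts in the lung levels was not tested. Tnfaip3 and Nfkbiz rose the most, by 25.9 to 74.7 times on the ratio of group means, against 4.42 to 10.0 times for Nfkbia and 3.47 to 4.61 times for Nfkbie. For these 4 genes, each of the 6 lung libraries stood above each of the 10 blood and spleen libraries, a pattern seen in 6.36% of the 8299 genes tested. By limma's moderated test with Benjamini-Hochberg adjustment, 4 of the 5 genes passed an adjusted p of 0.05 as higher in lung in each of the 4 comparisons. Over all genes the share called higher was 7.83% for lung minus blood in GF mice, 8.03% for lung minus spleen in GF mice, 12.5% for lung minus blood in SPF mice and 7.68% for lung minus spleen in SPF mice. The share called lower, in the same order, was 1.96%, 2.14%, 6.63% and 1.99%, and none of the 5 genes was among those. The 2 lung comparisons of each housing state share their lung libraries, so their values stand side by side and are not separate evidence.

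**Figure D1:**
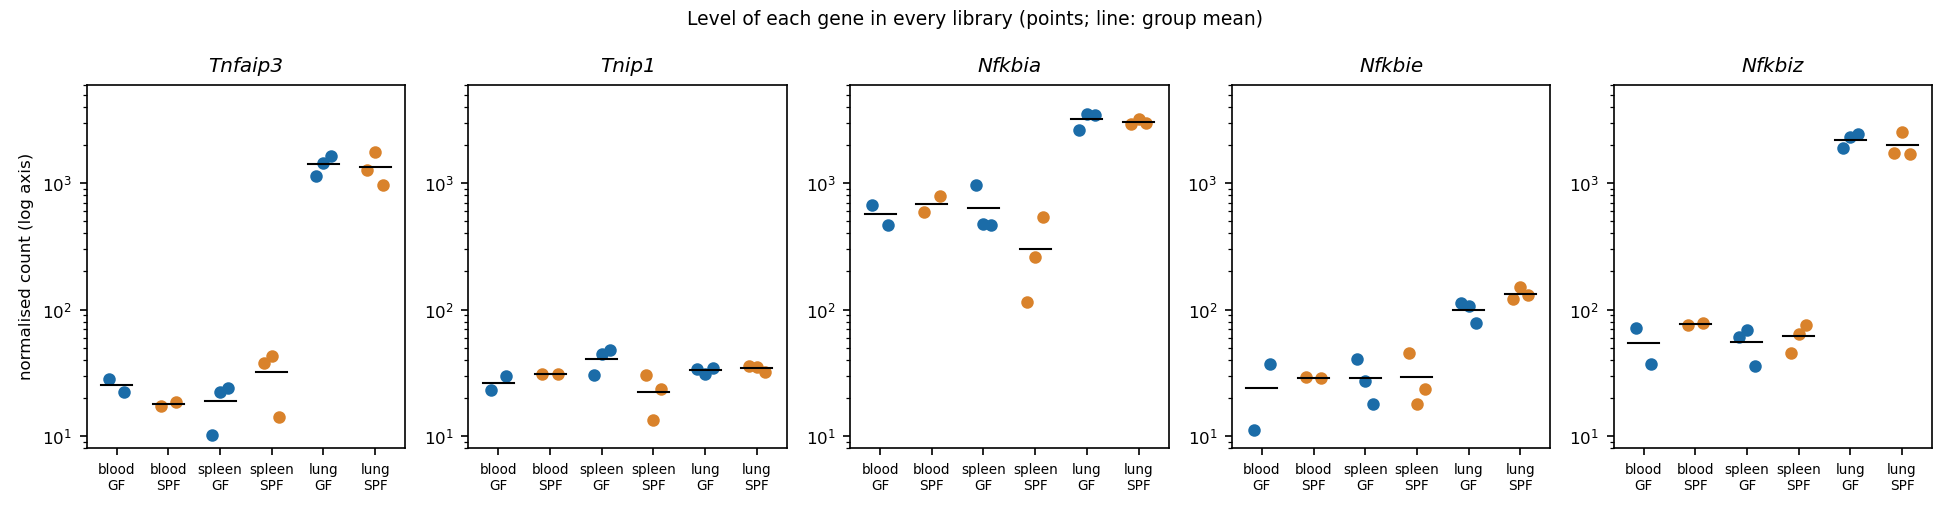
Normalised count (log axis) of each of the 5 genes in every library, by tissue and by germ-free (blue) or specific pathogen free (orange) housing; each point is 1 library and each line the group mean. The 6 lung libraries lie apart from the other 10 for Tnfaip3 (965 and above against 43.2 and below), Nfkbia, Nfkbie and Nfkbiz, whereas Tnip1 lies between 13.4 and 48.1 throughout.

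Tnfaip3 (ENSMUSG00000019850) lies on chromosome 10, from 19000910 to 19015657 on the minus strand of GRCm38. In lung it stood at 1130.05, 1447 and 1637 normalised counts in GF replicates 2, 3 and 4, and at 1263, 1755 and 965 in SPF replicates 1, 2 and 3. In spleen it stood at 10.1, 22.2 and 24.0 in GF replicates 1, 3 and 4, and at 38.1, 43.2 and 14.1 in SPF replicates 1, 2 and 4. In blood it stood at 28.1 and 22.2 in GF replicates 2 and 3, and at 17.2 and 18.4 in SPF replicates 3 and 4. The lowest lung library was 22.3 times the highest of the others, and the 10 low libraries rested on 2 to 60 reads each, against 641 or more in lung. Expressed as log2 differences, on the log2(value + 1) scale, lung exceeded blood by 5.63 (95% interval 4.88 to 6.38, limma adjusted p = 3.46e-12) in GF mice and by 6.09 (5.34 to 6.83, adjusted p = 6.52e-13) in SPF mice. Against spleen the differences were 6.04 (5.37 to 6.71, adjusted p = 3.89e-14) in GF and 5.32 (4.65 to 5.99, adjusted p = 6.00e-13) in SPF mice. In these 4 comparisons Tnfaip3 ranked 3, 2, 2 and 4 by p among all genes (GF blood, GF spleen, SPF blood, SPF spleen). Its call held under each of the 31 alternative settings tried.

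Nfkbiz (ENSMUSG00000035356) lies on chromosome 16, from 55811375 to 55838899 on the minus strand. In lung it stood at 1875, 2292 and 2417 normalised counts in the GF replicates 2, 3 and 4, and at 1734, 2548 and 1700.2 in the SPF replicates 1, 2 and 3. In spleen it stood at 60.9, 69.1 and 36.04 in GF replicates 1, 3 and 4, and at 45.7, 64.0 and 75.2 in SPF replicates 1, 2 and 4. In blood it stood at 71.1 and 37.0 in GF replicates 2 and 3, and at 75.4 and 78.4 in SPF replicates 3 and 4. Lung was again well clear of the rest, the lowest lung library being 21.7 times the highest other one. The log2 difference from blood was 5.31 (4.72 to 5.90, limma adjusted p = 5.90e-14) in GF and 4.65 (4.06 to 5.24, adjusted p = 7.46e-13) in SPF mice. From spleen it was 5.26 (4.74 to 5.79, adjusted p = 3.45e-15) in GF and 4.94 (4.41 to 5.47, adjusted p = 1.01e-14) in SPF mice. Nfkbiz had the smallest p of all 8299 genes in both GF comparisons, and its call held under each of the 31 alternatives.

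Nfkbia (ENSMUSG00000021025) lies on chromosome 12, from 55489410 to 55492647 on the minus strand. In lung it stood at 2638, 3477 and 3426 normalised counts in GF replicates 2, 3 and 4, and at 2911, 3210.1 and 2988 in SPF replicates 1, 2 and 3. In spleen it stood at 959, 472 and 462 in GF replicates 1, 3 and 4, and at 114, 258 and 536 in SPF replicates 1, 2 and 4. In blood it stood at 669.7 and 467 in GF replicates 2 and 3, and at 591 and 783 in SPF replicates 3 and 4. Nfkbia was thus above 100 outside lung too, and the spleen libraries spread over a wide range, the lowest of them resting on 15 reads. Lung exceeded blood by 2.49 (1.38 to 3.596, limma adjusted p = 0.00752) in GF and by 2.15 (1.05 to 3.26, adjusted p = 0.0108) in SPF mice on the log2 scale. It exceeded spleen by 2.40 (1.41 to 3.39, adjusted p = 0.00428) in GF and by 3.57 (2.58 to 4.56, adjusted p = 0.000199) in SPF mice. The comparisons with blood depended on single blood libraries: without blood GF replicate 3 the difference was 2.23 with an adjusted p of 0.0615, and without blood SPF replicate 3 it was 1.95 with an adjusted p of 0.114.

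Nfkbie (ENSMUSG00000023947) lies on chromosome 17, from 45555703 to 45563169 on the plus strand. In lung it stood at 113, 106 and 78.3 normalised counts in GF replicates 2, 3 and 4, and at 120.2, 150.3 and 130.1 in SPF replicates 1, 2 and 3. In spleen it stood at 40.6, 27.2 and 18.02 in GF replicates 1, 3 and 4, and at 45.7, 17.9 and 23.5 in SPF replicates 1, 2 and 4. In blood it stood at 11.2 and 37.0 in GF replicates 2 and 3, and at 29.4 and 28.6 in SPF replicates 3 and 4. The lowest lung library was 1.71 times the highest of the others, a narrower gap than for the 3 genes above. The log2 difference from blood was 2.13 (1.20 to 3.05, limma adjusted p = 0.00141) in GF and 2.16 (1.23 to 3.08, adjusted p = 0.000826) in SPF mice. From spleen it was 1.71 (0.88 to 2.53, adjusted p = 0.00427) in GF and 2.17 (1.35 to 3.00, adjusted p = 0.000276) in SPF mice. The comparison with GF blood depended on which blood library was kept: the difference was 1.26 with an adjusted p of 0.146 without replicate 2, and 3.00, still passing, without replicate 3. With all libraries thinned to equal depth, the difference from SPF blood was 1.52 with an adjusted p of 0.169.

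Tnip1 (ENSMUSG00000020400) lies on chromosome 11, from 54910785 to 54962917 on the minus strand. In lung it stood at 33.8, 31.0 and 34.8 normalised counts in GF replicates 2, 3 and 4, and at 35.5, 35.0 and 32.3 in SPF replicates 1, 2 and 3. In spleen it stood at 30.4, 44.4 and 48.1 in GF replicates 1, 3 and 4, and at 30.5, 13.4 and 23.5 in SPF replicates 1, 2 and 4. In blood it stood at 22.9 and 29.6 in GF replicates 2 and 3, and at 30.7 and 31.0 in SPF replicates 3 and 4. The lung libraries lay within 1.15 times of each other and inside the range of the spleen libraries. The SPF lung libraries all lay above both SPF blood libraries, as was so for 31.3% of all genes. None of the 4 lung comparisons passed: the log2 differences were 0.27 (-0.61 to 1.15) from GF blood, -0.33 (-1.11 to 0.46) from GF spleen, 0.16 (-0.72 to 1.04) from SPF blood and 0.56 (-0.23 to 1.35) from SPF spleen. These intervals leave room for a difference of either sign but not for one as large as that of Tnfaip3 or Nfkbiz. Without the 5 libraries under 250000 reads, the difference from SPF spleen, where 1 library was then left, was 1.24 with a limma adjusted p of 0.0471.

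**Figure D2:**
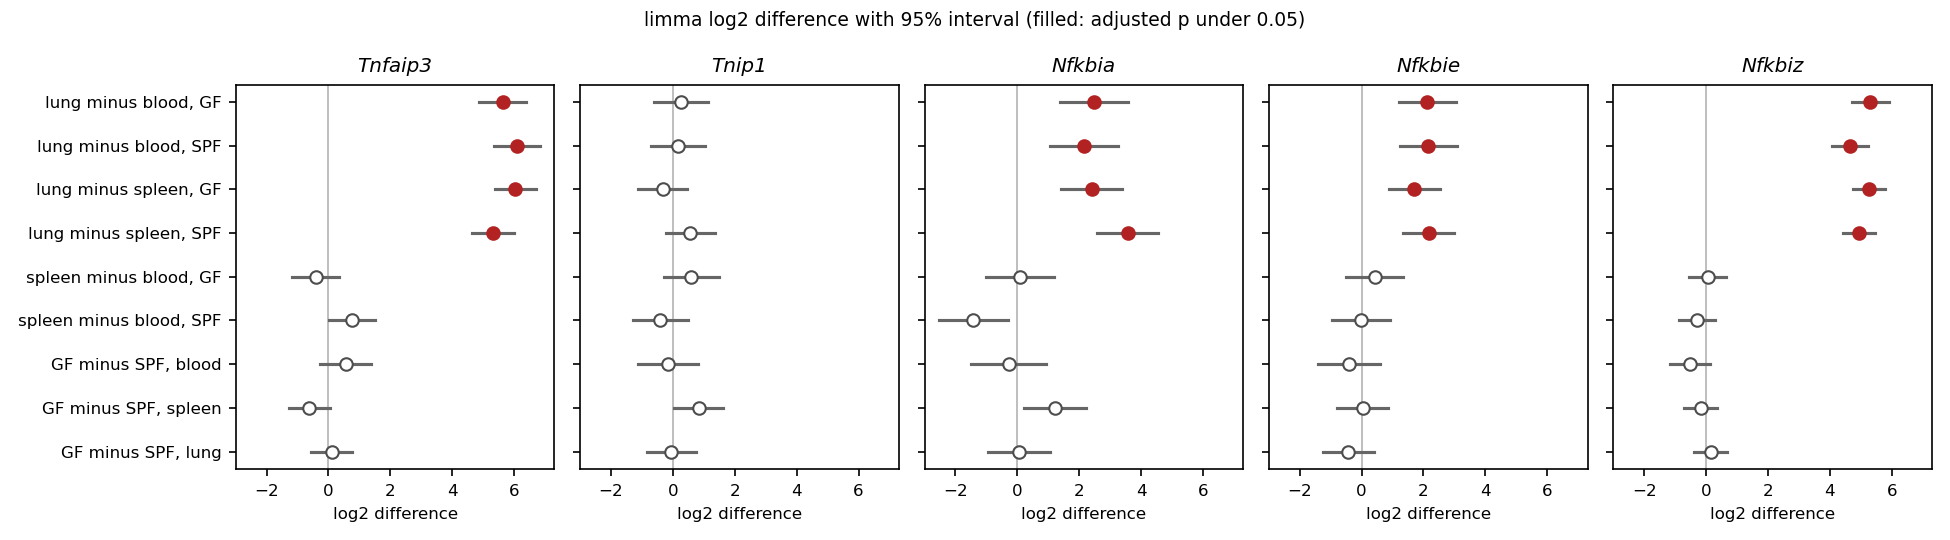
Log2 difference (points) with its 95% interval (bars) for each of the 5 genes in the 6 tissue comparisons and the 3 comparisons of germ-free with specific pathogen free mice; filled points passed a limma adjusted p of 0.05. The filled points are the 16 lung differences of Tnfaip3, Nfkbia, Nfkbie and Nfkbiz, from 1.71 to 6.09, and no point passed for Tnip1 or outside the lung comparisons.

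The size of the lung difference was not the same for each gene. For each of the 10 pairs of genes, the log2 ratio of the pair was compared between the 6 lung and the 10 other libraries by a two-sided exact permutation test, whose smallest possible p is 0.00025, with adjustment over the pairs. This test was chosen after the values were seen. The ratio to Tnip1 was higher in lung for Tnfaip3 by 5.59, for Nfkbiz by 4.89, for Nfkbia by 2.56 and for Nfkbie by 1.86 on the log2 scale (adjusted p = 0.000357 for each by the exact permutation test, all 6 lung libraries above the other 10). Since Tnip1 passed in no comparison, these ratios restate the lung difference of each gene and are not separate evidence. Tnfaip3 rose more than Nfkbia by 3.03 (adjusted p = 0.000624, exact permutation test, with overlap between the lung and other libraries) and more than Nfkbie by 3.73 (adjusted p = 0.000357, exact permutation test). Nfkbiz rose more than Nfkbia by 2.33 and more than Nfkbie by 3.03 (adjusted p = 0.000357 for both, exact permutation test). The pairs Tnfaip3 with Nfkbiz (0.70, adjusted p = 0.0574, exact permutation test) and Nfkbia with Nfkbie (0.70, adjusted p = 0.136, exact permutation test) did not pass. Both turned on single libraries. The first pair passed without blood GF replicate 3, spleen GF replicate 4, spleen SPF replicate 1 or spleen SPF replicate 2, with adjusted p of 0.0395, 0.0360, 0.0289 and 0.0369 by the exact permutation test. The second passed without blood GF replicate 2, with an adjusted p of 0.0147 by that test.

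Per kilobase of exon, which allows levels to be compared between genes, the order of the 5 genes differed between tissues. The length used was the union of all annotated exons, so a gene that uses a short transcript is understated. In lung, Nfkbia led with 1931 ± 201 normalised counts per kilobase (SD, n = 6), followed by Nfkbiz with 417 ± 73.6, Tnfaip3 with 189 ± 41.9, Nfkbie with 38.2 ± 7.94 and Tnip1 with 9.53 ± 0.496. In blood, Nfkbia also led with 389.9 ± 82.7 per kilobase (SD, n = 4), but Nfkbiz had 13.1 ± 3.83, Nfkbie 8.72 ± 3.58, Tnip1 8.07 ± 1.08 and Tnfaip3 2.97 ± 0.677. Spleen resembled blood, with 289.9 ± 179 for Nfkbia, 11.7 ± 2.95 for Nfkbiz, 9.46 ± 3.86 for Nfkbie, 8.96 ± 3.65 for Tnip1 and 3.50 ± 1.80 for Tnfaip3 (SD, n = 6). The A20 gene was thus the lowest of the 5 per length in blood and spleen and the third in lung. In sorted but mixed RNA, a change in the share of cells that express a gene and a change in RNA per cell cannot be told apart.

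Between spleen and blood none of the 5 genes passed with all libraries in the fit. In GF mice 0 of the 5 passed for spleen minus blood by limma (0.88% of all genes passed), and 0 had an unadjusted p under 0.05. In SPF mice 0 of 5 passed as well (7.06% of all genes passed), while 2 had an unadjusted p under 0.05. Those were Nfkbia, lower in spleen by a log2 difference of -1.42 (-2.52 to -0.31, limma adjusted p = 0.12), and Tnfaip3, with 0.77 (0.02 to 1.51, adjusted p = 0.202). All 3 SPF spleen libraries had less Nfkbia than either SPF blood library, a separation that 19.4% of all genes showed, whereas the Tnfaip3 groups overlapped, spleen SPF replicate 4 with 14.1 lying below both blood libraries. Without that replicate, both passed: Nfkbia at -1.96 (adjusted p = 0.00137) and Tnfaip3 at 1.21 (adjusted p = 0.0245). Voom, a weighted form of limma run on the reads recovered from the values, called Nfkbia in SPF mice (-1.34, adjusted p = 0.0134) and no other of the 5 genes in either spleen comparison with blood.

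The comparison of germ-free with specific pathogen free mice asks whether microbes alter these levels. By limma, 0 of the 5 genes passed in blood (1.33% of all genes passed), in spleen (0.325%), in lung (0.0241%) or on the mean of the 3 tissues (1.39%). At an unadjusted p under 0.05 there were 0 genes in blood, 2 in spleen, 0 in lung and 0 on the mean, and voom called 0 in each. In lung, the log2 difference of GF minus SPF was 0.11 (-0.56 to 0.78) for Tnfaip3, 0.16 (-0.37 to 0.68) for Nfkbiz and 0.06 (-0.93 to 1.05) for Nfkbia. It was -0.43 (-1.26 to 0.39) for Nfkbie and -0.05 (-0.84 to 0.74) for Tnip1. For the 4 genes that rose, these intervals do not reach the size of the lung minus spleen difference, but they leave room for a smaller change of either sign. The GF and SPF lung libraries of Nfkbie did not overlap, 78.3 to 113 against 120.2 to 150.3, a separation in that direction that 6.15% of all genes showed, and its limma adjusted p was 0.999.

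In spleen, Nfkbia stood at 631 ± 284 in GF and 303 ± 214 in SPF libraries (SD, n = 3 each), a log2 difference of 1.22 (0.23 to 2.21, limma adjusted p = 0.292). Tnip1 stood at 41.0 ± 9.31 against 22.5 ± 8.59 (SD, n = 3 each), a log2 difference of 0.84 (0.05 to 1.63, limma adjusted p = 0.365). Neither passed with all libraries. Without spleen SPF replicate 4, which had the highest SPF spleen level of Nfkbia, the Nfkbia difference was 1.76 with an adjusted p of 0.0108, so that result rests on 1 library. In blood, Tnfaip3 was higher in both GF than in both SPF libraries (0.56, -0.26 to 1.38) and Nfkbiz lower (-0.51, -1.15 to 0.14), with limma adjusted p of 0.506 and 0.437. Such separation was common among blood groups of 2, 26.3% of genes being separated as higher and 26.4% as lower.

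Whether the tissue differences themselves differed between GF and SPF mice was tested by interaction terms, and 0 of the 5 genes passed in any of the 3 (0.012% of all genes passed for lung minus blood, 0.012% for lung minus spleen and 0.759% for spleen minus blood). At an unadjusted p under 0.05 there was 1, Tnfaip3 in spleen minus blood, at -1.18 (-2.24 to -0.12, limma adjusted p = 0.294), and voom called 0. Without spleen SPF replicate 4, the spleen minus blood interaction of Nfkbia passed at 2.04 (limma adjusted p = 0.0358). In order of mean level, GF and SPF lung came first and overlapped for Tnfaip3, Nfkbiz and Nfkbia. Below lung, neighbouring groups overlapped for Tnfaip3, Nfkbia and Nfkbie. For Nfkbiz the order was SPF blood, SPF spleen, GF spleen and GF blood, and neighbouring groups overlapped in the deposited values. For Tnip1 the order ran from GF spleen through both lung groups and both blood groups to SPF spleen, and neighbours overlapped in the deposited values except GF lung and SPF blood, whose nearest libraries lay less than 1 read apart.

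The region upstream of these genes was read from RefSeq's promoter windows on GRCm38.p6, which run from 250 bases before to 50 bases after each annotated start. Windows of 4 of the 5 genes were searched. Nfkbiz was not among the windows used here and was not searched. The windows were searched on both strands for the kappa B consensus, the decameric sequence that NF-kB dimers bind. Sequences are given 5′ to 3′ on the gene's strand, with matches to the consensus in capitals, to show where the matches lie in the 4 genes. For Tnfaip3, which has 2 windows, a match was found in the first only, and 30 bases are shown around each of its 2 places, since GENCODE M21 has an exon of the same gene there. The whole upstream 250 bases are shown for the other 3 genes.
Tnfaip3, chr10:19015516-19015545, minus strand: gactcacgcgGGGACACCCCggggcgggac
Tnfaip3, chr10:19015411-19015440, minus strand: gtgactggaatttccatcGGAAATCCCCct
Nfkbia, chr12:55492648-55492897, minus strand: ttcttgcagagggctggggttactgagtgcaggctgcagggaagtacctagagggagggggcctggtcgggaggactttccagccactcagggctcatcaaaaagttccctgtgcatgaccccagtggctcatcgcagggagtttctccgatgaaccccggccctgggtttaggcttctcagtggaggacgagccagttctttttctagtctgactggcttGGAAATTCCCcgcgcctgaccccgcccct
Nfkbie, chr17:45555450-45555699, plus strand: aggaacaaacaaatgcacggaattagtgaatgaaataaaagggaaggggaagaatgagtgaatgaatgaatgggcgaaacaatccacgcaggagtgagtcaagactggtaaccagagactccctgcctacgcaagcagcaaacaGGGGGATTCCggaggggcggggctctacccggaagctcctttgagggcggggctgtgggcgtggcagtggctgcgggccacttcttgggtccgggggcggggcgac
Tnip1, chr11:54962941-54963190, minus strand: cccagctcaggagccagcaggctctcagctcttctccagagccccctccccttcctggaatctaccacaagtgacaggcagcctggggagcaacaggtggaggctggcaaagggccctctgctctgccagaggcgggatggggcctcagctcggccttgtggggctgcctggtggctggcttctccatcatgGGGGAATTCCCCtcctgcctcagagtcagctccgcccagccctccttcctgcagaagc

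In Tnfaip3 the matches began 125 and 12 bases before the annotated start, the first reading as a match on both strands. Nfkbia had 1 match, read on the opposite strand, whose far end lay 29 bases before the start. Nfkbie had 1 match on its own strand, beginning 106 bases before the start. Tnip1 had 4 overlapping matches within 12 bases, the first beginning 58 bases before the start. The consensus occurred in 8.46% of 32851 windows of 27025 gene symbols and in 7.25% of their upstream 250 bases. A match was found in each gene searched, and the matched letters differed between the genes. Whether the matches bear on the tissue differences was not tested. A match describes letters and was not tested as a binding site.

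Genes of the pathway around the 5 inhibitors were taken from lists grouped by role. Some genes stand in more than 1 list, such as Traf1, Birc3, Ier3 and Zfp36. Of 5 NF-kB subunits tested, 0 passed in lung minus blood or lung minus spleen in GF mice, at median differences of -0.24 and -0.02 beside all-gene medians of 0.15 and 0.11. In SPF mice 2 of the 5 were higher in lung than blood, Nfkb2 (1.39, limma adjusted p = 0.0218) and Rel (1.57, adjusted p = 0.014), and Rel alone was higher than in spleen (1.61, adjusted p = 0.00758). Of all genes, 7.83% and 8.03% were called higher against GF blood and GF spleen, and 12.5% and 7.68% against SPF blood and SPF spleen. Rel encodes c-Rel and stood at 67.7 ± 8.33 normalised counts in SPF lung against 22.1 ± 1.91 in SPF blood (SD, n = 3 and 2). Both blood calls were lost without either SPF blood library, with adjusted p of 0.128 and 0.0671 for Rel and 0.0696 and 0.189 for Nfkb2. The Rel call was also lost without lung SPF replicate 1 (adjusted p = 0.0505) and, against spleen, without spleen SPF replicate 4 (0.0732), and the Nfkb2 call without lung SPF replicate 2 or 3 (0.0672 and 0.0898).

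Among the other IkB proteins, 1 of 5 tested passed in lung minus blood and lung minus spleen in GF mice and in lung minus blood in SPF mice, and 2 passed in lung minus spleen in SPF mice. All of these calls were higher in lung, beside 7.83%, 8.03%, 12.5% and 7.68% of all genes (GF blood, GF spleen, SPF blood, SPF spleen). The gene called in all 4 was Nfkbid, which encodes the nuclear protein IkB NS and is induced by NF-kB. It stood at 1082 ± 199 in GF lung and 1193 ± 116 in SPF lung (SD, n = 3 each), against group means of 49.2 to 107 in blood and spleen. Its log2 differences were 4.39, 3.94, 3.46 and 4.16 for lung minus GF blood, GF spleen, SPF blood and SPF spleen. The other was Nfkbib, encoding IkB beta, with 1.28 (limma adjusted p = 0.0418) in SPF lung minus spleen, a call kept in 14 of 30 alternatives and lost without either SPF blood library, any GF lung library, spleen SPF replicate 1 or 2, or lung SPF replicate 2 or 3, with an adjusted p of up to 0.194. Nfkbid kept its 4 calls under all 31 alternatives.

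Of 12 IKK subunits and activating kinases tested, 1 was higher in lung in each of the 4 comparisons, Map3k8, the kinase also known as TPL2, with log2 differences of 1.25, 1.27, 1.09 and 1.08 (limma adjusted p = 0.0242, 0.00922, 0.0345 and 0.0317, in the order GF blood, GF spleen, SPF blood, SPF spleen). A count of 1 in 12 is near the share of all genes called higher, 7.83%, 8.03%, 12.5% and 7.68%, and says nothing particular of the kinases. Against blood these calls were lost without either GF blood library, lung GF replicate 3 or 4, either SPF blood library, or lung SPF replicate 1 or 2, and against spleen without spleen GF replicate 3, lung GF replicate 3, spleen SPF replicate 2 or 4, or lung SPF replicate 1 or 2. The adjusted p then reached at most 0.197, 0.105, 0.209 and 0.177 for GF blood, GF spleen, SPF blood and SPF spleen.

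Of 14 genes tested on the ubiquitin editing list, not all of them partners of A20 or ABIN1, 0 were higher in lung in any of the 4 comparisons. Tnfaip8l2 encodes TIPE2, a restraint on Toll-like and T cell receptor signalling and not an enzyme of ubiquitin editing. Of that list, Tnfaip8l2 was lower in lung in all 4. It stood at 76.3 ± 17.7 in GF lung and 46.9 ± 6.74 in SPF lung (SD, n = 3 each), against 317 and 647 on the mean in GF and SPF blood and 324 and 307 in GF and SPF spleen. It fell by 2.01 and 2.09 on the log2 scale from GF blood and spleen, and by 3.74 and 2.67 from SPF blood and spleen, and kept all 4 calls under the 31 alternatives. In SPF lung minus spleen Otulin passed as lower too, but it stood at 8.67 in SPF spleen and its call was lost in 8 of 27 alternatives, 5 of them leaving out 1 library (blood SPF replicate 4, lung GF replicate 3, or any lung SPF library), with an adjusted p of up to 0.142. Among 15 receptor adaptors, 1, 1, 3 and 2 were higher and 2, 0, 2 and 0 lower in lung (GF blood, GF spleen, SPF blood, SPF spleen). Beside both lists, 7.83%, 8.03%, 12.5% and 7.68% of all genes were called higher and 1.96%, 2.14%, 6.63% and 1.99% lower. Traf1, an NF-kB-induced partner of the TNF receptors, was higher in lung in all 4 comparisons. It stood at 40.2 ± 7.90 in GF and 44.8 ± 2.34 in SPF lung (SD, n = 3 each), against 0.468 and 1.13 on the mean in GF and SPF blood. Birc3 was also higher in both SPF comparisons and Tollip than in SPF blood, while Irak4 and Myd88 were lower than in GF blood and Myd88 and Tirap than in SPF blood. The Myd88 calls were lost without blood GF replicate 2 (limma adjusted p = 0.314) or any GF lung library, and without SPF blood replicate 3 or 4 (0.0662 and 0.0723), and the Tollip call without either SPF blood library (0.0788 and 0.0559). Traf1 had no read in any of the 6 spleen libraries, where a count of 0 allows up to 4.47 to 22.9 normalised counts (3 reads in each library, counting error only).

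**Figure D3:**
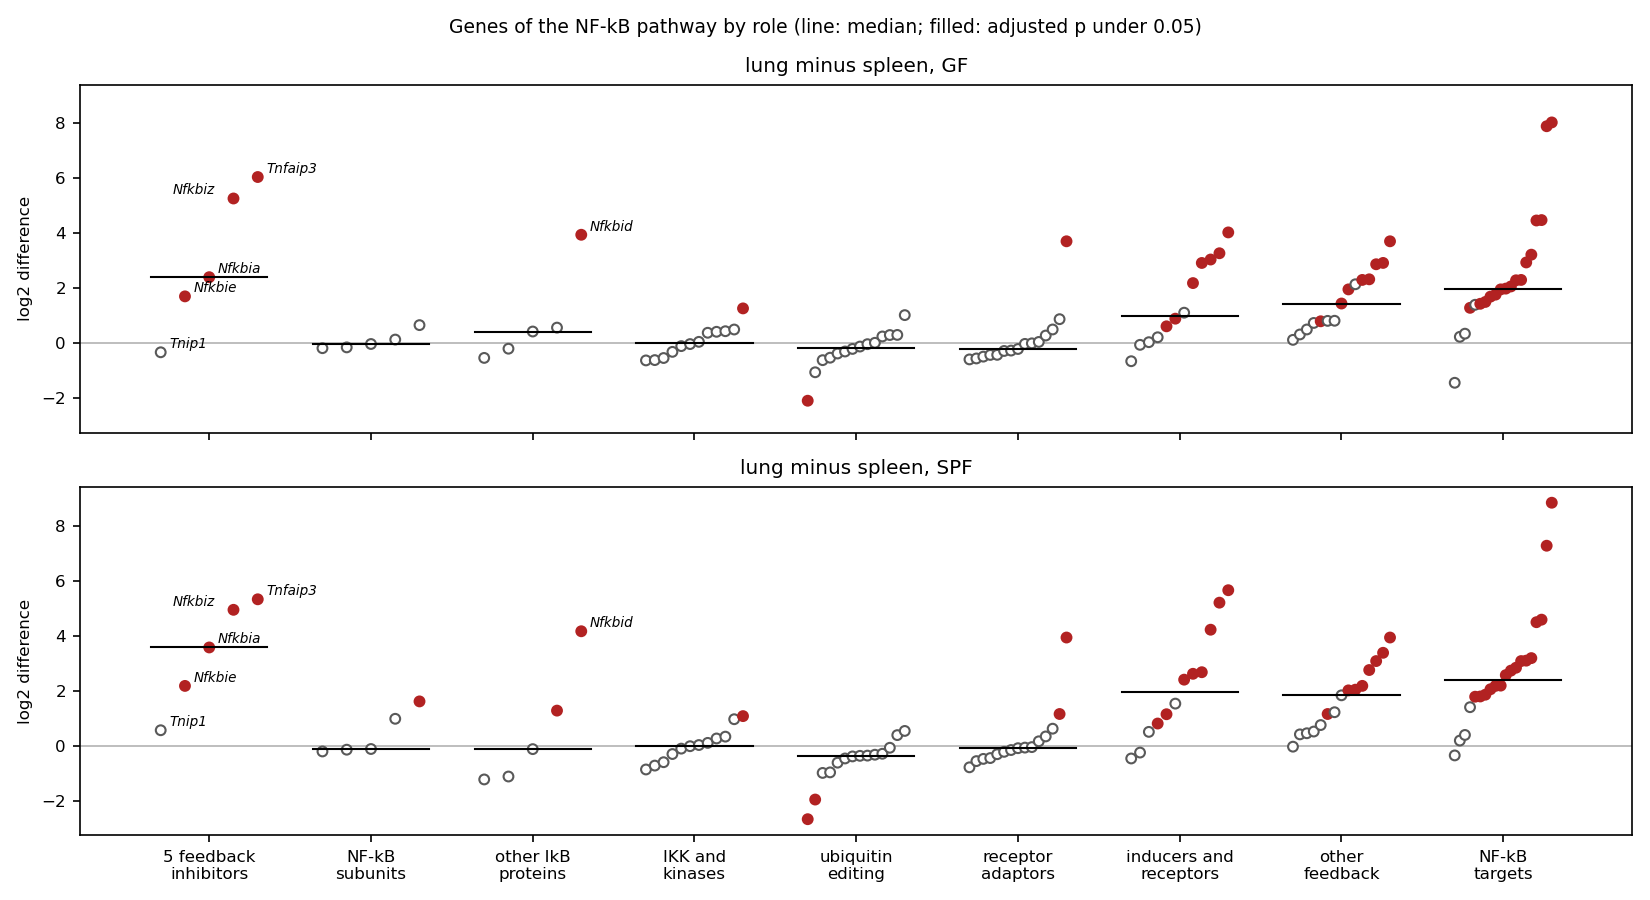
Log2 difference of lung minus spleen in germ-free (top) and specific pathogen free (bottom) mice for each gene of 9 role groups of the NF-kB pathway; each point is 1 gene, filled where the limma adjusted p was under 0.05, and each line is the group's median. Open points around 0 make up most of the subunit, kinase, ubiquitin and adaptor groups, and filled points above 0 make up most of the target group, with 16 of 20 targets higher in each panel.

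The inducers, feedback regulators and target genes held most of the other genes that were higher in lung. Of 20 targets tested, 15, 16, 15 and 16 were higher in lung and 0 lower (GF blood, GF spleen, SPF blood, SPF spleen), with medians of 2.34, 1.97, 1.95 and 2.37 beside all-gene medians of 0.15, 0.11, 0.16 and 0.06. The list holds known NF-kB targets and was drawn up with earlier results of these data known. Cxcl2, a neutrophil-attracting chemokine, stood at 1117 ± 177 in GF and 1398 ± 251 in SPF lung (SD, n = 3 each), against group means of 0 to 1.69 elsewhere. Gadd45b, a stress response gene, stood at 645 ± 120 and 707 ± 62.4 (SD, n = 3 each), against 90.3 and 193 on the mean in GF and SPF blood. Of 12 inducers and receptors, 6, 7, 7 and 8 were higher in lung and 0 lower. Beside the targets and the inducers, 7.83%, 8.03%, 12.5% and 7.68% of all genes were called higher and 1.96%, 2.14%, 6.63% and 1.99% lower. Tnf, encoding the cytokine TNF, stood at 103 ± 37.7 in GF and 94.6 ± 18.1 in SPF lung (SD, n = 3 each), against group means of 0.701 to 10.99 elsewhere. Il1b, encoding interleukin 1 beta, stood at 24605 ± 4414 in GF lung (SD, n = 3) against 3555 in GF blood and 2968 in GF spleen on the mean, and at 29537 ± 1778 in SPF lung (SD, n = 3) against 10254 in SPF blood and 5139 in SPF spleen. The Il1b difference of lung minus blood was 2.81 in GF and 1.52 in SPF mice on the log2 scale.

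Of 15 other feedback regulators, 7, 8, 9 and 8 were higher in lung in the same order of comparisons and 0 lower. Of all genes, 7.83%, 8.03%, 12.5% and 7.68% were called higher and 1.96%, 2.14%, 6.63% and 1.99% lower. Zfp36, which encodes the mRNA-destabilising protein TTP, stood at 2000.2 ± 281 in GF and 2239 ± 183 in SPF lung (SD, n = 3 each), against 628 and 862 on the mean in GF and SPF blood. Trib1, encoding a pseudokinase, stood at 372 ± 52.1 and 563 ± 78.5 (SD, n = 3 each), against 45.7 and 38.5 in GF and SPF blood. For lung minus spleen in GF mice the count of 8 was 5 without spleen GF replicate 3 or lung GF replicate 4. Of 16 immediate early genes, which many stimuli induce within minutes and which tissue handling can induce as well, 13, 13, 12 and 12 were higher in lung and 1, 1, 1 and 0 lower (Klf6), with medians of 2.77, 2.60, 2.06 and 2.34. The same shares of all genes stand beside these counts. Egr1 stood at 1017 ± 318 in GF and 1100.2 ± 348 in SPF lung (SD, n = 3 each) against group means of 0.496 to 5.03 elsewhere. The organs' dissociation is not described in the labels, and the part of handling in the lung levels was not tested.

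Between GF and SPF mice, 5 of the 107 listed pathway genes passed by limma in blood, 2 in spleen and 0 in lung, beside 1.33%, 0.325% and 0.0241% of all genes. At an unadjusted p under 0.05 there were 28, 23 and 9 of the 107, beside 1367, 1032 and 332 of all 8299 genes. Those that passed in blood were Tnfrsf1b (1.13, adjusted p = 0.0141) and Il1rap (1.73, adjusted p = 0.0412), higher in GF mice, and Il1b (-1.56, adjusted p = 0.0216), Ier2 (-1.14, adjusted p = 0.0308) and Atf3 (-1.56, adjusted p = 0.0412), lower in GF mice. In spleen they were Il1r2, the decoy receptor of IL-1, higher in GF mice (1.67, adjusted p = 0.00131), and Bcl3, a nuclear IkB protein, lower (-2.30, adjusted p = 0.0499). These 7 were named after their values were seen. None of them was run under the alternative settings, so how far they depend on single libraries is not known. The blood groups held 2 libraries each, and blood GF replicate 3 held 132798 reads.

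Transcripts of other cells moved with the lung difference. The 9 lung epithelial markers listed summed to 2659 to 11091 normalised counts in lung and to 4.47 to 37.0 elsewhere, Sftpc and Scgb1a1 being the highest in lung. The 8 endothelial and stromal markers summed to 573 to 1303 in lung and to 76.2 to 266 elsewhere, where Acta2 made up most of the sum and Cldn5, Kdr, Ramp2, Sparc, Col1a2 and Dcn were each at 0 in at least 1 group. The 6 dendritic cell markers summed to 587 to 988 against 88.5 to 426. Highest of them in lung were Cd74 (means of 445 in GF and 426 in SPF lung) and H2-Ab1 (130 and 135). That sum therefore does not show which cells it came from. The 13 mitochondrially encoded genes, which mark no cell type, summed to 4271 to 12728 against 607 to 2085. Whether other cells or the neutrophils themselves carried that difference was not tested. Of 9 mast cell, basophil and eosinophil markers, only Kit, Gata2 and Ccr3 were listed, without Fcer1a, Cpa3, Mcpt8 or Ms4a2. These 3 summed to 45.3 to 181 against 0 to 32.9. Kit and Gata2 were higher in each lung comparison, while Ccr3 was lower in SPF lung than in SPF spleen, so the sum does not show which cells it came from. The 14 macrophage and monocyte markers, whose sum was carried by Slc40a1, Chil3 and Csf1r, summed to 2685 to 3071 in lung and to 3131 to 6791 elsewhere. Single markers of that list moved both ways: of 12 tested, 2, 1, 3 and 0 were higher in lung and 2, 2, 2 and 3 lower (GF blood, GF spleen, SPF blood, SPF spleen). Of all genes, 7.83%, 8.03%, 12.5% and 7.68% were called higher and 1.96%, 2.14%, 6.63% and 1.99% lower. The markers called higher were Vcam1 against both blood groups, Lyz1 against GF blood and GF spleen, and C1qb and C1qc against SPF blood. Platelet and erythroid transcripts, high in blood, summed to 47.8 to 2086 in lung and to 48.1 to 22022 in spleen. The part of these transcripts in the lung levels of the 5 genes was not tested. Within lung, the epithelial sum spanned 4.17 times from lowest to highest, the endothelial sum 2.27 times, the dendritic sum 1.68 times, the B cell sum 1.48 times and the macrophage sum 1.14 times. Nfkbia spanned 1.32 times, Nfkbiz 1.499, Tnfaip3 1.82, Nfkbie 1.92 and Tnip1 1.15. SPF lung replicate 1 had the lowest epithelial sum, 2659, and the lowest endothelial sum, 573. It had 1263 of Tnfaip3, 1734 of Nfkbiz, 2911 of Nfkbia and 120.2 of Nfkbie. GF lung replicate 3 had the highest epithelial sum, 11091, and an endothelial sum of 1060. It had 1447, 2292, 3477 and 106 of the same genes. These libraries were picked by the epithelial sum alone, and no relation between the sums and the genes was tested.

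**Figure D4:**
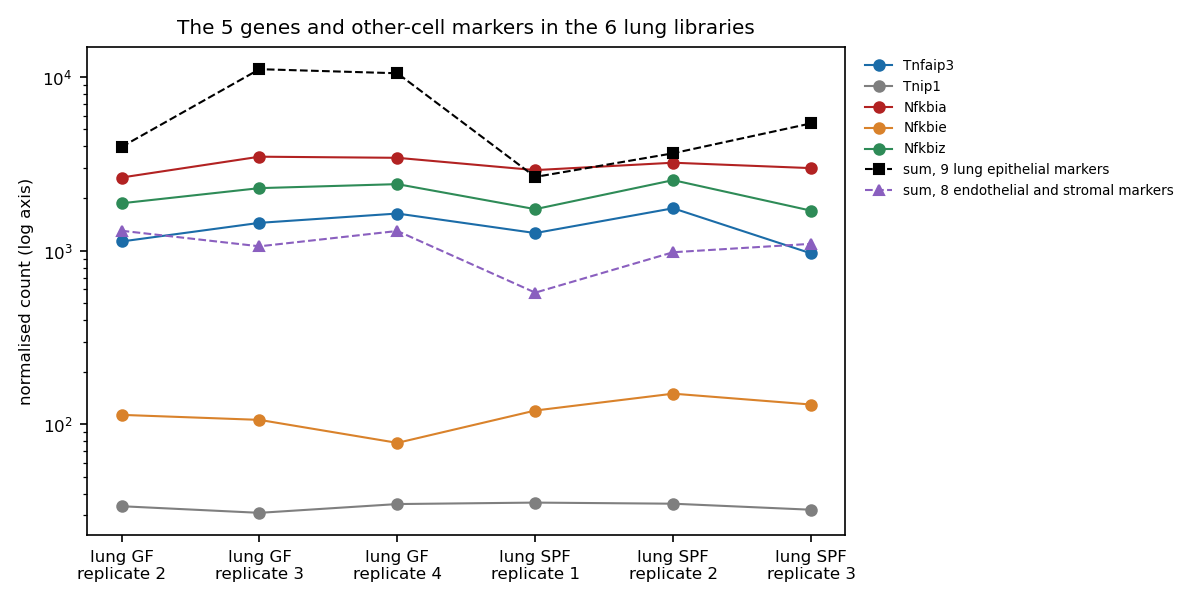
Normalised count (log axis) of each of the 5 genes in the 6 lung libraries (solid lines), beside the summed level of 9 lung epithelial markers (dashed, squares) and of 8 endothelial and stromal markers (dashed, triangles). The epithelial sum runs from 2659 to 11091 and the endothelial and stromal sum from 573 to 1303. Tnfaip3 runs from 965 to 1755, Nfkbiz from 1700.2 to 2548, Nfkbia from 2638 to 3477 and Nfkbie from 78.3 to 150.3. The lines join libraries for reading only, as replicates have no order.

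Across the 16 libraries, the inhibitors that rose followed each other, over points that all share the contrast of lung with the rest. Pearson's r on log2(value + 1) was 0.98 for Tnfaip3 with Nfkbiz, 0.91 for Nfkbiz with Nfkbia, 0.87 for Nfkbiz with Nfkbie and 0.76 for Nfkbia with Nfkbie, and between 0.15 and 0.34 for Tnip1 with the others. Over all genes tested, the 3 most like Tnfaip3 in pattern were Cd34, Sparc and Afap1l1 (r = 0.98, 0.98 and 0.97). Sparc is among the endothelial and stromal markers above and had a mean of 388 in GF lung, against 0.234 in GF blood and 0 in GF spleen. Whether Tnfaip3 or Nfkbie transcripts in lung came in part from such cells was not tested. Cd34 and Afap1l1 were on none of the marker lists, so the cells they came from are not shown here. Most like Nfkbiz were Ppp1r15a, Nfkbid and Trem1 (0.99 for each), and most like Nfkbia were Cd14, Ets2 and Ccrl2 (0.98, 0.97 and 0.96). Nfkbie was most like Pcolce, Nr4a2 and Mgp (0.94, 0.94 and 0.93), and Pcolce and Mgp were on no marker list either. Tnip1 was most like Kdm5c, Csf2rb2 and Trip6 (0.81, 0.81 and 0.80). The mean of the 5 genes was most like Cxcl2, Trem1, Egr1, Cd34 and Srsf5 (r from 0.98 to 0.99). These are descriptions over 16 libraries that differ in depth and tissue and carry no test.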

How the data were processed

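The authors' deposited table holds 1 normalised signal per gene and library. Per the submitters' processing notes, CASAVA, RSEM 1.3.1, limma and the mm10 build were used; strand is not given in the sources used here. The deposited signal behaved as estimated reads plus 0.5, times a library constant (91.4% to 98.7% of low values were whole reads within 0.05), so reads were recovered from each library's smallest value, and levels are printed without the offset. Log2(value + 1) was fitted with limma 3.58.1 (R 4.3.3): 1 model of 6 groups and 16 libraries, trended and robust prior, 13 comparisons, two-sided, Benjamini-Hochberg over 8299 genes reaching 10 in 2 or more libraries (1997 removed), threshold 0.05. Depth was 104213 to 3033941 reads. The fit was also run on simulated data with the same spread for all genes. Changes were placed in GF lung only, in genes of higher mean. Those settings differ from the low and shallow values here, so that run does not vouch for them. The 5 genes and the lists were chosen with earlier results of these data known. Named list genes were the up to 4 of smallest adjusted p per list and tissue comparison among those passing without overlap of groups, and those most alike had the highest r over 16 libraries. Other list genes named, and the pair tests, were chosen after their values were seen. Gene positions are from GENCODE M21.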

Additional observations from a re-analysis of the deposited data

How the results depend on the processing

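Over 31 alternatives (pseudocount, filter, scaling, prior, weights, depth, groups fitted, each library left out, and 2 chosen after seeing the data: voom and removal of the offset), the 16 lung differences that passed gave 496 values, of which 492 still passed, 4 did not and 0 changed sign. The 4 were Nfkbie against SPF blood at equal depth (1.52) and, without 1 blood library, Nfkbie (1.26) and Nfkbia (2.23) in GF and Nfkbia (1.95) in SPF mice; apart from the thinning and the left-out libraries, the cause was not tested. Of the 49 differences that did not pass, 10 values passed and 62 changed sign, none of these 62 passing. For spleen minus blood in SPF mice, the number of the 5 genes that passed was 0, but 1 with a value of at least 100 required (Tnip1 then drops out), with array weights or with voom, and 2 without the libraries under 250000 reads; leaving out 1 library at a time gave 0 to 2. Leaving out 1 library gave 0 to 1 for GF minus SPF in spleen and for the spleen minus blood interaction. The number of higher targets in lung minus spleen in GF mice was 10 under that filter, which tests fewer genes, and those of other feedback regulators were 4 or 5 in the lung comparisons. The ratio of Tnfaip3 to Nfkbiz passed the exact permutation test with the offset removed (0.76, adjusted p = 0.0486) and without the shallow libraries (0.87, adjusted p = 0.024). Same-numbered libraries did not deviate together from their group means (9 pairs, r from -0.13 to 0.07). In groups of 2 or 3 libraries, some of them shallow, this cannot tell whether they share a mouse. With a replicate block 4 of 5 genes passed in each lung comparison and 0 elsewhere. The planned edgeR test was not run, since too few values were whole reads. Depth limits the low levels in spleen and in GF blood replicate 3, where 2 to 5 reads lie behind several values.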
